A study of Mus musculus with 18 samples.

Results

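Ephrins, Eph receptors, class 3 semaphorins, neuropilins and plexins are the guidance ligands and receptors that cells use to attract, repel and sort one another. The family was described here in whole mouse lung around birth, in mice that lack *Scap* or *Insig1* and *Insig2* in the respiratory epithelium and in their controls. Its 38 genes were taken by name: 15 ligands (8 ephrins and 7 class 3 semaphorins) and 23 receptors (14 Eph receptors, 2 neuropilins and 7 plexins). A probe set that carries 1 gene symbol was found for 37 of them, among 19938 genes with such a probe set in the table. *Ephb2* was not analysed here.

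RNA from whole lung was measured on 18 arrays in 6 groups of 3, each array a separate biological replicate, and every value is the log2 intensity of a probe set as deposited. Floxed *Scap* was deleted by Cre (*ScapΔ/Δ*, Scap-/- in the labels), and these lungs were taken at E18.5 (arrays KO10, KO11 and KO12) or on the day of birth, PN1 (KO16, KO17 and KO18). Their control littermates lacked either the rtTA or the Cre transgene (C7, C8 and C9 at E18.5, and C13, C14 and C15 at PN1). The Insig line was sampled at E17.5: *Insig1/2Δ/Δ* lungs (Insig-/- in the labels; KO22, KO23 and KO24) had floxed *Insig1* deleted in the same way on an Insig2-/- background, and their control littermates (C19, C20 and C21) carried the floxed *Insig1* allele and the Insig2-/- knockout too. In both lines rtTA was driven by the SP-C promoter, which is active in respiratory epithelium, a doxycycline-dependent promoter drove Cre, and the dams were fed doxycycline during gestation, so that the gene was deleted in epithelium while the RNA came from all cells of the lung. The *Scap* line was of mixed strain. The 2 lines were sampled at different stages, so that line and stage cannot be told apart between them.

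Eph receptors are receptor tyrosine kinases. Their ephrin ligands stay on the cell surface, A ephrins by a lipid anchor and B ephrins by a transmembrane segment, so that contact between cells can signal into both of them. Class 3 semaphorins are secreted; most bind a neuropilin, which pairs with an A plexin that carries the signal to the cytoskeleton, whereas B plexins are receptors of membrane-bound class 4 semaphorins. In the lung these genes are known from branching of the fetal epithelium, which *Sema3a* restrains, and from vessel growth, in which *Efnb2* marks arteries, *Ephb4* marks veins and *Nrp1* also binds VEGF.

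*Sema3c*, *Epha3* and *Epha7*, the members that passed the test between E18.5 and PN1 in control lungs as well as in *ScapΔ/Δ* lungs, are shown here by the bases just before their RefSeq transcription start (GRCm38.p6), with *Epha8*, which passed in *ScapΔ/Δ* lungs and holds an E-box. Each is written 5′ to 3′ on the strand of the gene, and capitals mark a GC box (GGGCGG on either strand) or an E-box (CACGTG). Transcribed bases are left out, so the stretch of *Epha7* is 185 bases long and that of *Epha8* 207, against 250 for *Sema3c* and *Epha3*.
Sema3c, chr5:17574566-17574815, plus strand: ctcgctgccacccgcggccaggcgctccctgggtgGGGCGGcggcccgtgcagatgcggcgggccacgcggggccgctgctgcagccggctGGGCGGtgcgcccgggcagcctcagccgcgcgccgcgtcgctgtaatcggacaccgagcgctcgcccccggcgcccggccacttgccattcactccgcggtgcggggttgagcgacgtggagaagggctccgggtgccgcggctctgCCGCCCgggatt
Epha3, chr16:63864176-63864425, minus strand: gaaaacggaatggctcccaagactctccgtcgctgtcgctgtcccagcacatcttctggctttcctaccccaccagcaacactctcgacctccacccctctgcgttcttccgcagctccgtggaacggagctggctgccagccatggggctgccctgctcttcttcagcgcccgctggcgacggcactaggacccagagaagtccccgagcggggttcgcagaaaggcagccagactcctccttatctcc
Epha7, chr4:28812881-28813065, plus strand: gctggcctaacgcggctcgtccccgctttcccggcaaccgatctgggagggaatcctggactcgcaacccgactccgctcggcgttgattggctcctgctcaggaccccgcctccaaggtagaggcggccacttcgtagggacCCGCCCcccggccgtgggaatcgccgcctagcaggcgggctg
Epha8, chr4:136956860-136957066, minus strand: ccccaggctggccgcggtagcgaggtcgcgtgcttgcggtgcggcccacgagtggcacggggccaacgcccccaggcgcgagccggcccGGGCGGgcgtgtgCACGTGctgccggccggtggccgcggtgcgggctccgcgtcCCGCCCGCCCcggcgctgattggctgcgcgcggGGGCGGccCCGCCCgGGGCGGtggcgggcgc

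*Sema3c* had 3 GC boxes, *Epha7* had 1, *Epha8* had 6, some of them overlapping, and *Epha3* had none. Over the 250 bases before the start, a GC box was found in 29 of 37 windows of 33 members (78.4%) and in 32.7% of 32851 windows of all genes. The stretches shown were 62.8% (*Epha3*) to 84.1% (*Epha8*) G or C, against a median of 52.4% over the windows of all genes. The shares were not matched for base composition. The sterol response core that SREBP, the factor that *Scap* and Insig control, is known to bind (TCACNCCAC on either strand) was in 0 of the 37 member windows of 300 bases and in 1.24% of all windows. An E-box was in 2 of them, those of *Epha8* and *Sema3e*, and in 7.15% of all windows. A match is a string of letters in this window and not a measured site. The GC box was chosen after the values had been seen.

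Before the comparisons, 3 sets of arrays have to be described. At PN1, KO17 and KO18 stood apart from the rest: they correlated with each other at r = 0.994 over all probe sets, but with the other arrays at only 0.931 to 0.960, whereas the other 16 arrays correlated at 0.973 to 0.998. In the Insig line, C19, C20 and KO22 were more alike (r = 0.996 to 0.997) than they were to C21, KO23 and KO24 (0.984 to 0.991), so that the arrays were split across genotype. C21 also held heart muscle markers (*Myh6*, *Myl7*, *Actc1*, *Tnnt2*, *Nppa* and *Myl4*) at a mean log2 of 12.26, against 9.76 to 10.51 on the other 5 Insig arrays. The targeted genes were lower in each deletion without overlap between groups, but did not pass the tests described below. The log2 difference was -0.41 ± 0.09 (SE) for *Scap* at E18.5 and -0.29 ± 0.09 for *Scap* at PN1. For *Insig1* at E17.5 it was -1.22 ± 0.20. Of all probe sets tested, 35.5% did not overlap between genotypes at E18.5 and 16.6% at PN1, in either direction. In the Insig line 4.22% were lower without overlap. Type II cell markers (*Sftpc* and 7 others) and endothelial markers (*Pecam1* and 7 others) were all above the 35th percentile of every array.

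Of the 37 genes, 35 passed the filter on low values (at or above the 35th percentile of the array, 6.43 to 6.87, in at least 66% of the arrays), which is all 15 ligands and 20 of 22 receptors. *Epha5* (6.15 to 6.46 on the 18 arrays) and *Epha6* (5.27 to 5.51), both receptors known mainly from neurons, did not pass and were not tested. Below, a gene is said to have risen or fallen when its Benjamini-Hochberg adjusted p in limma, taken over all probe sets that passed, was under 0.05. With 3 arrays a group, an exact permutation test of 1 gene cannot give a p below 0.1.

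Members passed the test between stages and not between genotypes. The genotype tests called few genes of any kind: 2 of 22800 probe sets for *Scap* deletion at each stage and 0 of 22775 for Insig1/2 deletion. The targeted genes did not pass them either, with limma adjusted p of 0.51 (*Scap*, E18.5), 0.091 (*Scap*, PN1) and 0.76 (*Insig1*, E17.5). A member that did not pass a genotype test therefore cannot be taken as unchanged. Between E18.5 and PN1, 3 of 35 members passed in control lungs, *Sema3c* upward and *Epha3* and *Epha7* downward, and the share over all probe sets was 1.19% higher and 1.39% lower. In *ScapΔ/Δ* lungs 11 members passed, 6 higher and 5 lower, where 17.5% of all probe sets were called higher and 20.1% lower, so the members' shares lay near those of all genes. The 2 birth comparisons use different arrays but come from 1 fit with a shared estimate of each gene's spread, so their p values are not independent. The 3 genes that passed in controls also passed in *ScapΔ/Δ* lungs, where they were 27.3% of the 11, and all 11 had the same sign in controls. Over the 35 members, 29 had the same sign in both. The share of all probe sets with the same sign was not taken, so the counts cannot be read as particular to the family.

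*Sema3c*, a secreted ligand of both neuropilins, had the firmest change. It measured 9.46, 9.46 and 9.50 in the E18.5 controls and 10.69, 10.76 and 10.71 in the PN1 controls. In *ScapΔ/Δ* lungs it measured 9.65, 9.66 and 9.57 at E18.5 and 10.77, 10.79 and 10.67 at PN1. All 6 arrays of PN1 lay above all 6 of E18.5, which held for 4 of 35 members (with *Sema3f*, *Sema3g* and *Plxna1*) and for 3.63% of all probe sets, and KO17 and KO18 did not stand apart for this gene. The log2 difference was 1.25 ± 0.07 (SE) in controls, a 2.37-fold rise (limma adjusted p = 4.5e-05), and 1.11 ± 0.07 in *ScapΔ/Δ* lungs, a 2.17-fold rise (limma adjusted p = 5.0e-05). In the Insig line at E17.5 its 6 values, 10.01 to 10.19, fell between those of the E18.5 and PN1 arrays of the *Scap* line.

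**Figure D1:**
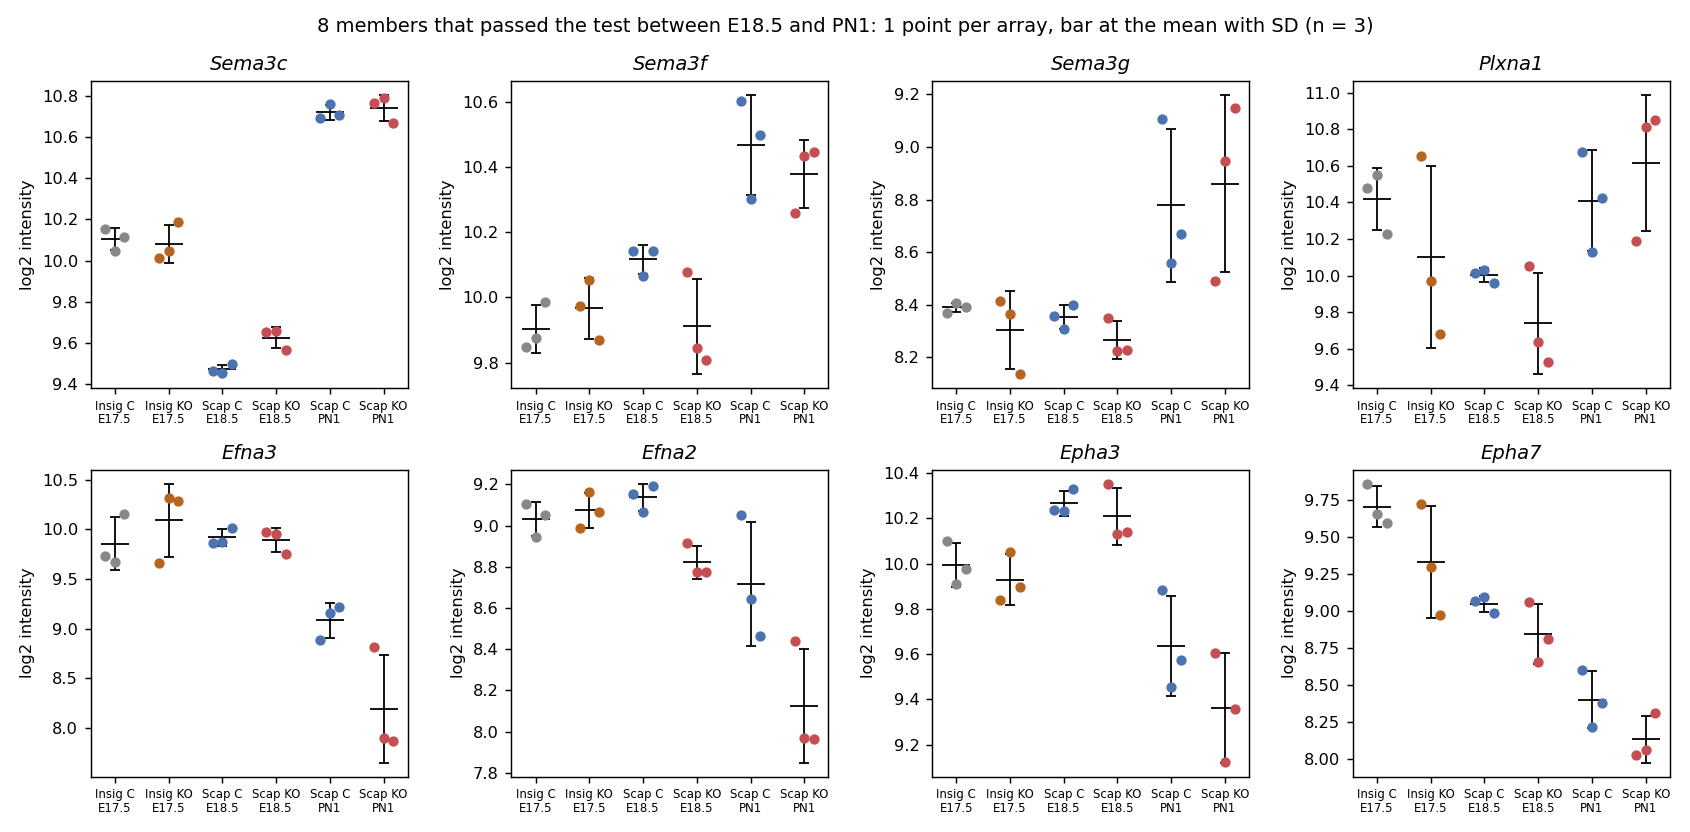
Log2 intensity (vertical axis) of 8 members that passed the test between E18.5 and PN1, for the 6 groups (horizontal axis; C, control; KO, deleted). Each point is 1 array, and the bar is the mean with its SD (n = 3). *Sema3c* is near 9.5 on the 6 arrays of E18.5 and near 10.7 on the 6 of PN1, whereas for *Efna3* the arrays KO17 and KO18 lie well below KO16.

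The other class 3 semaphorins leaned the same way. All 7 had a difference above 0 in controls, as did 52.1% of all probe sets, with a median of 0.35 against 0.01 over all probe sets. In *ScapΔ/Δ* lungs 6 of 7 did, as did 47.9% of all probe sets, with a median of 0.45 against -0.025. After median centring the latter were 5 of 7, with a median of 0.27 against -0.20 over all probe sets. After quantile normalisation they were 6 of 7, with a median of 0.57 against -0.06. Only *Sema3c* passed in controls, and *Sema3c*, *Sema3f* and *Sema3g* passed in *ScapΔ/Δ* lungs. *Sema3f*, a ligand of *Nrp2*, measured 10.14, 10.06 and 10.14 in controls at E18.5 and 10.60, 10.30 and 10.50 at PN1, a difference of 0.35 ± 0.10 that did not pass (limma adjusted p = 0.12). In *ScapΔ/Δ* lungs it went from 10.08, 9.85 and 9.81 to 10.26, 10.43 and 10.45, a rise of 0.47 ± 0.10 (limma adjusted p = 0.013). Its 2 stages did not overlap in either genotype.

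*Sema3g*, which is known from endothelium and also signals through *Nrp2*, rose by 0.59 ± 0.17 in *ScapΔ/Δ* lungs (limma adjusted p = 0.027), from 8.35, 8.22 and 8.23 to 8.49, 8.95 and 9.15. In controls it went from 8.36, 8.31 and 8.40 to 9.11, 8.56 and 8.67, a difference of 0.42 ± 0.17 that did not pass. *Sema3b* differed by 0.52 ± 0.12 in controls (limma adjusted p = 0.059), with the lowest PN1 array at 9.43 and the highest E18.5 array at 9.06, and by 0.24 ± 0.12 in *ScapΔ/Δ* lungs. For *Sema3a*, *Sema3d* and *Sema3e* the differences in controls were 0.03 ± 0.11, 0.17 ± 0.13 and 0.10 ± 0.18.

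Of the ephrins 3 fell, all of them A ephrins and all in *ScapΔ/Δ* lungs. *Efna3* fell by 1.71 ± 0.22 in *ScapΔ/Δ* lungs (limma adjusted p = 0.0017), to 0.306 of its E18.5 level, from 9.97, 9.96 and 9.75 to 8.82, 7.89 and 7.86. In controls it went from 9.87, 9.87 and 10.02 to 8.88, 9.16 and 9.21, without overlap, a difference of -0.84 ± 0.22 that did not pass (limma adjusted p = 0.077). With the control arrays fitted alone, an alternative chosen after seeing the data that takes the spread of the *ScapΔ/Δ* arrays out of the test, it passed (limma adjusted p = 0.0035).

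*Efna2* fell by 0.70 ± 0.16 in *ScapΔ/Δ* lungs (limma adjusted p = 0.014), from 8.92, 8.78 and 8.77 to 8.44, 7.97 and 7.96. In controls it measured 9.15, 9.07 and 9.19 at E18.5 and 9.05, 8.64 and 8.46 at PN1. *Efna1*, a ligand of *Epha2* that is common in endothelium and epithelium, fell by 0.52 ± 0.16 in *ScapΔ/Δ* lungs (limma adjusted p = 0.030), but its 3 PN1 arrays were far apart: 11.21 on KO16, 10.50 on KO17 and 10.57 on KO18, against 11.26 to 11.29 at E18.5. Its controls were at 11.08 to 11.14 at E18.5 and 10.99 to 11.19 at PN1. None of the B ephrins passed. *Efnb2*, the arterial ephrin, was higher at PN1 by 0.29 ± 0.14 in controls and by 0.37 ± 0.14 in *ScapΔ/Δ* lungs (limma adjusted p = 0.059), and *Efnb1* differed by 0.03 and 0.00.

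Among the receptors, *Epha3* and *Epha7* fell. *Epha3*, a receptor of A ephrins, measured 10.24, 10.23 and 10.33 in controls at E18.5 and 9.88, 9.46 and 9.57 at PN1, a fall of 0.63 ± 0.14 (limma adjusted p = 0.043). In *ScapΔ/Δ* lungs it went from 10.35, 10.13 and 10.14 to 9.61, 9.12 and 9.36, a fall of 0.85 ± 0.14 (limma adjusted p = 0.0043). *Epha7*, which also binds A ephrins, went from 9.06, 9.09 and 8.99 to 8.60, 8.22 and 8.38 in controls, a fall of 0.65 ± 0.13 (limma adjusted p = 0.029), and from 9.06, 8.66 and 8.81 to 8.03, 8.06 and 8.31 in *ScapΔ/Δ* lungs, a fall of 0.71 ± 0.13 (limma adjusted p = 0.0063). For both genes the 6 PN1 arrays lay below the 6 arrays of E18.5, as they did for 4 of 35 members (*Efna3* and *Efna4* were the others) and for 6.49% of all probe sets. The control calls of both genes were lost when C7, C8, C9, C14 or C15 was left out (limma adjusted p of 0.14 to 0.18 for *Epha3* and 0.093 to 0.13 for *Epha7*). *Epha3* also lost its call without KO10, KO11, KO12 or KO18, with no filter and after median centring, with limma adjusted p of 0.054 to 0.13.

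*Epha8* rose by 0.37 ± 0.09 in *ScapΔ/Δ* lungs (limma adjusted p = 0.019), from 7.01, 7.01 and 6.90 to 7.23, 7.44 and 7.37, and in controls it lay between 7.08 and 7.22 at E18.5 and between 7.16 and 7.45 at PN1. These values are low on the arrays, and the call was lost when the arrays were quantile normalised or centred on their medians. The other 8 Eph receptors tested did not pass in either genotype. *Ephb4*, the venous receptor, differed by 0.16 and 0.19, *Epha2* by 0.27 and 0.33, *Epha4* by 0.08 and 0.12, and *Ephb3* by 0.03 and 0.00 in controls and *ScapΔ/Δ* lungs.

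**Figure D2:**
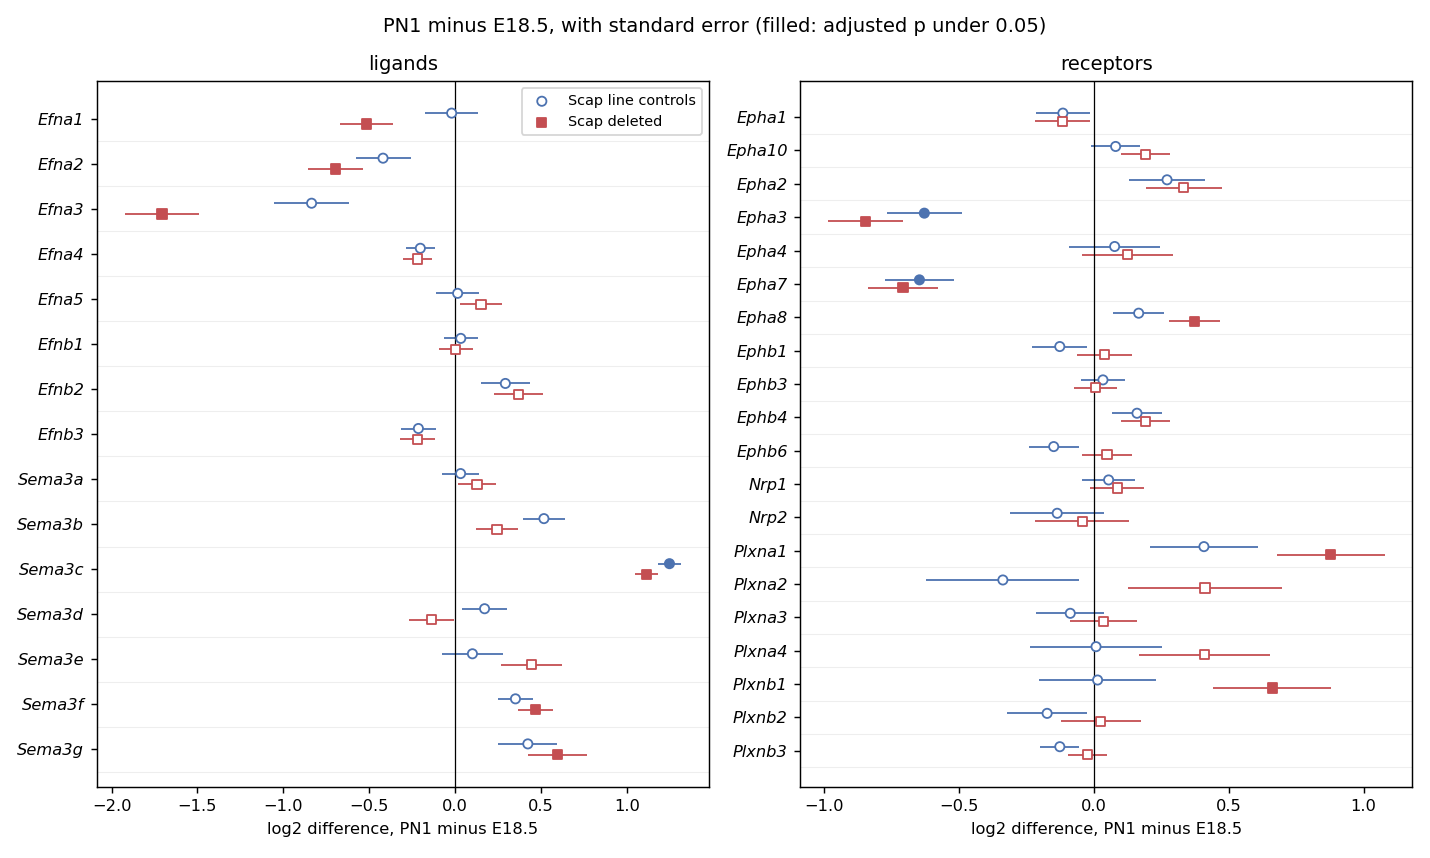
Log2 difference PN1 minus E18.5 (horizontal axis) with its standard error for the 15 ligands (left) and 20 receptors (right), in *Scap* line controls (circles) and *ScapΔ/Δ* lungs (squares), 3 arrays a stage. Filled symbols passed at an adjusted p under 0.05: 3 in controls and 11 in *ScapΔ/Δ* lungs.

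Of the plexins, 3 of 7 were above 0 in controls, with a median of -0.09, and 6 of 7 in *ScapΔ/Δ* lungs, with a median of 0.41. After quantile normalisation the latter were 5 of 7 with a median of 0.55, and after median centring 4 of 7 with a median of 0.24. The test of the difference between the genotypes passed for 0 of 7. *Plxna1*, a co-receptor of the neuropilins, rose by 0.88 ± 0.20 in *ScapΔ/Δ* lungs (limma adjusted p = 0.014), from 10.05, 9.64 and 9.53 to 10.19, 10.81 and 10.85, and went from 10.01, 10.03 and 9.96 to 10.68, 10.13 and 10.43 in controls, a difference of 0.41 ± 0.20 that did not pass. *Plxnb1*, a receptor of class 4 semaphorins, rose by 0.66 ± 0.22 (limma adjusted p = 0.039) in *ScapΔ/Δ* lungs, from 9.490, 9.181 and 8.996 to 9.32, 10.18 and 10.14, where KO16 lay within the E18.5 range. Its controls differed by 0.01. *Nrp1* (0.05 and 0.09) and *Nrp2* (-0.14 and -0.04) did not pass in either genotype.

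The calls in *ScapΔ/Δ* lungs leaned on KO17 and KO18. Without both arrays 3 members passed, *Sema3c*, *Epha7* and *Efna3*, where 6.2% of all probe sets did, and without KO17 or KO18 alone 4 did (7.56% and 8.61% of all probe sets). Leaving out KO16 gave 18 (72.1% of all probe sets), and leaving out KO11 or KO12 gave 5 (9.05% and 10.5%). In controls *Sema3c* passed under every one of the 22 alternatives that could be run. Markers of smooth muscle (*Acta2*, *Tagln*, *Myh11*, *Cnn1*, *Actg2* and *Des*) moved with birth as well. Their mean log2 was 9.94 to 10.15 in controls and 9.85 to 10.01 in *ScapΔ/Δ* lungs at E18.5, and 11.09 to 11.20 and 11.02 to 11.24 at PN1. The difference of the 6 genes had a median of 1.20 in controls, where 5 of 6 rose, and of 1.08 in *ScapΔ/Δ* lungs, where 6 of 6 did. All 6 heart muscle markers were above 0 in controls too, with a median of 0.44, and 0 of them passed. In *ScapΔ/Δ* lungs 4 of 6 were above 0, with a median of 0.23, and *Actc1* (0.43 ± 0.13) and *Nppa* (0.50 ± 0.13) rose. Of 10 nerve and glia markers listed, 5 passed the filter on low values. In controls 4 of these 5 were above 0, and *Gap43* (0.79 ± 0.14) and *Stmn2* (1.28 ± 0.24) rose. In *ScapΔ/Δ* lungs 3 of 5 were above 0, and *Gap43* (0.47 ± 0.14) rose. Endothelial markers had a median of 0.04 in controls, where 0 of 8 passed, and 0.16 in *ScapΔ/Δ* lungs, where 2 rose and 1 fell. Mesenchymal markers had a median of -0.14 in controls, where 1 of 8 passed, *Pdgfra* (-0.86 ± 0.11). Their median in *ScapΔ/Δ* lungs was 0.15, with 5 of 8 above 0. *Dcn* (-0.86 ± 0.13), *Tcf21* (-0.72 ± 0.12) and *Pdgfra* (-0.67 ± 0.11) fell there, and 0 rose. The part of these cells in the changes of the family was not tested, and in RNA from whole lung fewer cells of a type and less RNA per cell cannot be told apart.

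At E18.5, *Scap* deletion left no member past the test, and the family lay slightly low as a whole. Of 35 members, 32 had a difference below 0, as did 58.3% of all probe sets, with a median of -0.13 against -0.04 over all probe sets. The lists of related genes read below lay low as well. All 20 receptors were below 0, with a median of -0.15, and so were 12 of 15 ligands, with a median of -0.09. After centring the arrays on their medians 31 members and all 20 receptors were below 0. By limma 0 members passed, against 0.00877% of all probe sets, and 3 had an unadjusted p under 0.05 (9.24% of all probe sets). The methods' t-test called 0, and limma with array weights 3 (11.2% of all probe sets).

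The shift at E18.5 was seen on 2 of the 3 *ScapΔ/Δ* arrays. KO12 was below all 3 controls for 29 of 35 members and KO11 for 26, whereas KO10 was below them for 11 and above them for 14. Over all probe sets the shares below the controls were 48.1% for KO12, 46.6% for KO11 and 37.6% for KO10. The median deviation of the members from the control mean was -0.22 on KO12, -0.20 on KO11 and 0.01 on KO10, where it was -0.05, -0.04 and -0.01 over all probe sets.

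The groups did not overlap for 8 of 35 members at E18.5, and for 35.5% of all probe sets. Lower in *ScapΔ/Δ* lungs were 6 and higher 2. *Efna2* had the largest difference of the ligands, -0.32 ± 0.16, at 8.92, 8.78 and 8.77 against 9.15, 9.07 and 9.19. *Efnb1*, a ligand of B receptors, was at 10.57, 10.34 and 10.29 against 10.64, 10.57 and 10.68, with a difference of -0.23 ± 0.10. Of the receptors, *Nrp1* was at 11.47, 11.19 and 11.16 against 11.52, 11.51 and 11.52 (-0.24 ± 0.10), and *Plxna3*, an A plexin, at 7.46, 7.32 and 7.23 against 7.53, 7.52 and 7.52 (-0.19 ± 0.12). The other 2 lower genes were *Efna4* (-0.07) and *Epha8* (-0.17). Higher without overlap were *Efna1*, at 11.26, 11.29 and 11.28 against 11.08, 11.14 and 11.11 (0.17 ± 0.16), and *Sema3c* (0.15 ± 0.07). Each of these had a limma adjusted p above 0.05, between 0.54 and 0.77.

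At PN1 again no member passed for *Scap* deletion. Of the ephrins 6 of 8 were below 0 with a median of -0.20, and of the plexins 6 of 7 were above 0 with a median of 0.21, a difference between families that was not tested. The median over all 35 members was -0.06, as it was over all probe sets (-0.06). The plexins were high on KO17 and KO18 alone, with a median of 0.40 and 0.44 above the control mean, against -0.13 on KO16. After median centring, which moved the median of all probe sets to -0.19, the counts were 8 of 8 ephrins below 0 and 4 of 7 plexins above 0. By limma 0 members passed, against 0.00877% of all probe sets, and 6 had an unadjusted p under 0.05 (32.3% of all probe sets). The methods' t-test called 0. A fit over all 18 arrays called 3 members (*Efna2*, *Efna3* and *Sema3b*) and 13.2% of all probe sets, and limma with array weights 17 members and 68.1% of all probe sets. Leaving out KO16, which leaves KO17 and KO18, gave 12 members, where 61.9% of all probe sets passed, and leaving out any other array of the line gave 0.

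In all, 5 of 35 members did not overlap at PN1, where 16.6% of all probe sets did not, and all 5 were lower in *ScapΔ/Δ* lungs. *Efna3* was at 8.82, 7.89 and 7.86 against 8.88, 9.16 and 9.21 in controls (-0.89 ± 0.22, limma adjusted p = 0.090), and *Efna2* at 8.44, 7.97 and 7.96 against 9.05, 8.64 and 8.46 (-0.59 ± 0.16, limma adjusted p = 0.090). For both of them KO16 lay just below the lowest control, and KO17 and KO18 far below it. The B ephrin *Efnb1* was at 10.55, 10.36 and 10.31 against 10.76, 10.55 and 10.66 (-0.26 ± 0.10). *Nrp1*, at 11.38, 11.36 and 11.34 against 11.72, 11.42 and 11.56 (-0.21 ± 0.10), and *Ephb3*, an epithelial B receptor, at 9.08, 9.09 and 9.08 against 9.32, 9.24 and 9.29 (-0.20 ± 0.08), were the 2 whose *ScapΔ/Δ* arrays lay close together, KO16 included.

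Several plexins were high on KO17 and KO18 and not on KO16. *Plxna2* was at 8.88 on KO16, 9.97 on KO17 and 10.14 on KO18, against 9.20, 8.77 and 9.16 in controls (0.62 ± 0.28). *Plxnb1* was at 9.32, 10.18 and 10.14 against 9.59, 9.17 and 9.43 (0.49 ± 0.22), and *Plxna4* at 9.01, 9.77 and 9.86 against 9.68, 8.81 and 9.11 (0.35 ± 0.24). KO17 and KO18 were above the control range and KO16 inside it for 5 of 35 members (*Efna5*, *Plxna1*, *Plxna2*, *Plxna4* and *Plxnb1*) and 12.2% of all probe sets, and below it with KO16 inside for 3 (*Efnb3*, *Epha3* and *Sema3b*) and 16.8% of all probe sets. *Efna1* had KO16 above the controls and KO17 and KO18 below them. The median distance between KO17 and KO18 over the members was 0.09, and that between KO16 and KO17 was 0.21.

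Cell type markers also differed at PN1. Type II cell markers averaged 11.48 to 11.79 in *ScapΔ/Δ* lungs and 12.02 to 12.14 in controls. Of these markers 7 of 8 were below 0, with a median of -0.37. All 6 macrophage markers were below 0 too, with a median of -0.37. Their mean was 9.33 on KO17 and 9.35 on KO18 but 9.89 on KO16, inside the control range of 9.78 to 10.05. All 6 type I cell markers were below 0 as well, with a median of -0.26. Their mean was 11.21 on KO17, 11.24 on KO18 and 11.63 on KO16, against 11.58 to 11.68 in controls. At E18.5 type II markers averaged 11.83 to 11.92 against 12.11 to 12.14, with a median of -0.16. There 5 of 6 macrophage markers were above 0, with a median of 0.12, and 3 of 6 type I markers were. None of these markers passed by limma, and their part in the values of the family was not tested.

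**Figure D3:**
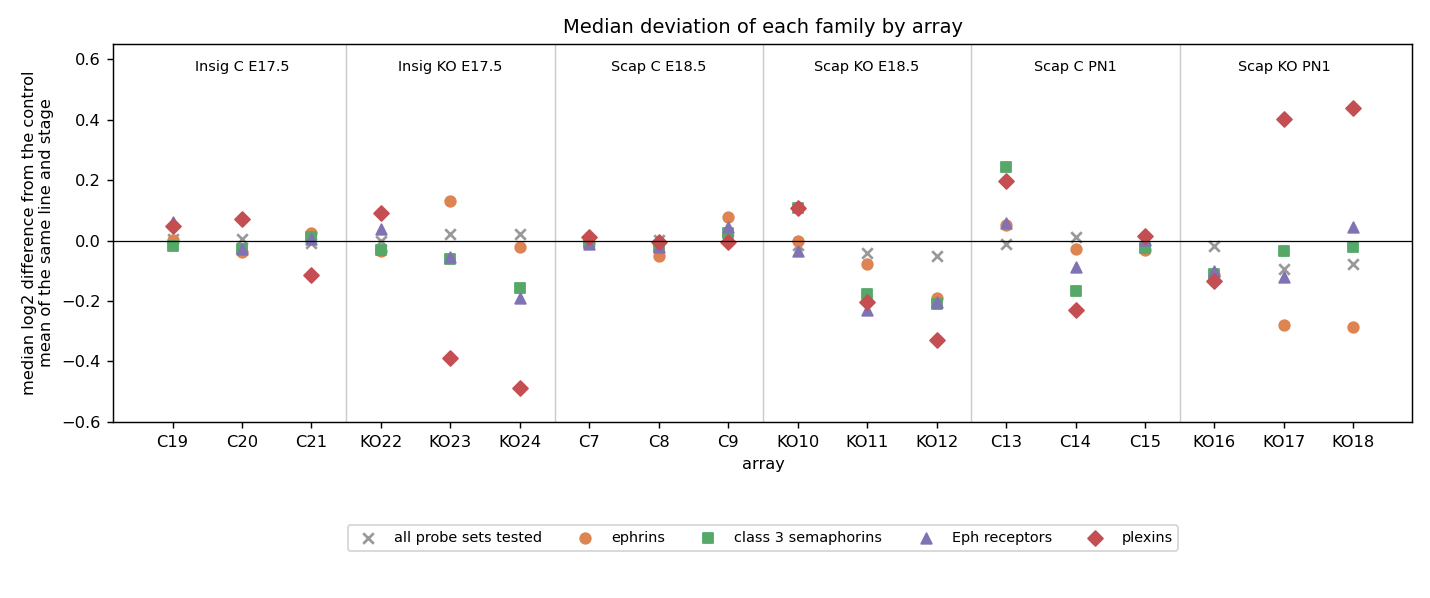
Median log2 difference of each family from the control mean of the same line and stage (vertical axis), on each of the 18 arrays (horizontal axis), with all probe sets tested as crosses. The plexins are at 0.40 on KO17 and 0.44 on KO18 but -0.13 on KO16, and at -0.39 on KO23 and -0.49 on KO24 but 0.09 on KO22.

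Whether the effect of *Scap* deletion changed between E18.5 and PN1 was tested as the difference of the 2 effects. By limma 0 members passed, where 0.0% of all probe sets did, and 2 had an unadjusted p under 0.05 (18.3% of all probe sets). Limma with array weights called 11 (64.4% of all probe sets), and leaving out KO16 gave 7 (58.4%). All 7 plexins had a difference above 0, with a median of 0.40 against -0.03 over all probe sets, but 5 of 7 did after quantile normalisation and after median centring, with medians of 0.52 and 0.23. The largest was that of *Plxna2*, 0.75 ± 0.40, and the smallest that of *Plxnb3*, 0.10 ± 0.10. *Efna3* had the largest difference in the other direction, -0.87 ± 0.31 (limma adjusted p = 0.26), followed by *Efna1* at -0.50 ± 0.22. For *Efna1* the deletion effect was 0.17 at E18.5 and -0.33 at PN1.

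In the Insig line, at E17.5, no member passed between *Insig1/2Δ/Δ* lungs and their controls. By limma 0 of 35 did, where 0.0% of all probe sets did, and 1 had an unadjusted p under 0.05 (4.1% of all probe sets). The methods' t-test called 0, and limma with array weights 13 (36.7% of all probe sets). Of the 35 members 26 were below 0, with a median of -0.07 against 0.01 over all probe sets, 17 of 20 receptors and 9 of 15 ligands among them. The plexins were lowest, 6 of 7 below 0 with a median of -0.28, under each of the 3 scalings.

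The plexin values followed the split of the arrays across genotype. *Plxna2* was at 10.12, 10.09 and 9.94 on C19, C20 and C21 and at 10.19, 9.57 and 9.23 on KO22, KO23 and KO24. *Plxna1* was at 10.48, 10.55 and 10.23 and at 10.65, 9.97 and 9.68, and *Plxnb1* at 9.92, 10.04 and 9.66 and at 10.04, 9.48 and 9.27. On all 3, C19, C20 and KO22 were the highest arrays. The same 3 arrays were the highest for 12 of 35 members, 5 of 7 plexins among them, where they were for 20.3% of all probe sets. Leaving out KO22 moved the median over the members to -0.13.

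In all, 6 members did not overlap between the Insig groups. Lower were 4 of 35, where 4.22% of all probe sets were, and higher were 2, where 5.83% were. *Sema3a*, which acts through *Nrp1* and A plexins, was at 10.77, 10.58 and 10.46 against 11.04, 10.86 and 10.81 (-0.30 ± 0.10), and *Sema3d*, a related ligand, at 8.77, 8.69 and 8.90 against 8.96, 8.91 and 9.28 (-0.26 ± 0.12). *Plxna4* was at 9.02, 8.98 and 8.76 against 9.11, 9.08 and 9.53 (-0.32 ± 0.14), and *Efna5*, an A ephrin, at 8.18, 8.13 and 8.18 against 8.27, 8.24 and 8.74 (-0.25 ± 0.14). In 3 of these 4 the highest array was C21, the one with high heart muscle markers. Without C21 the differences were -0.15 for *Sema3d*, -0.18 for *Plxna4* and -0.09 for *Efna5*, against -0.34 for *Sema3a*. Leaving out the highest control can only bring such a difference nearer to 0. For *Sema3a* C21 was the lowest control, so its difference could only grow. Whether heart tissue had a part in these values was not tested. Higher without overlap were *Efna4* (0.10 ± 0.07) and *Epha10* (0.06 ± 0.06), an Eph receptor without an active kinase, at 7.58, 7.64 and 7.60 against 7.56, 7.54 and 7.56. All 6 had a limma adjusted p of 0.76 to 0.79.

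**Figure D4:**
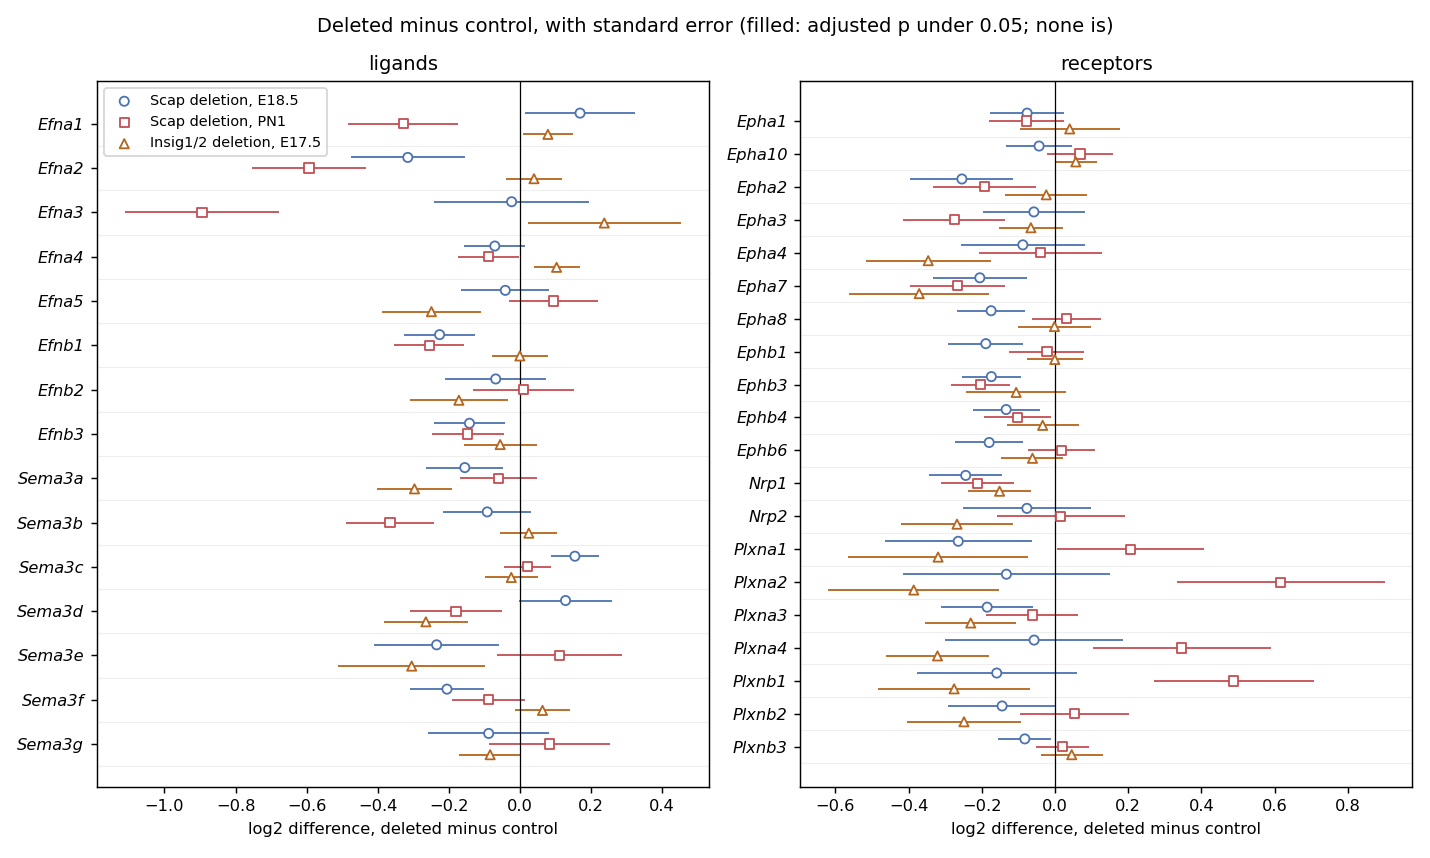
Log2 difference deleted minus control (horizontal axis) with its standard error for the 15 ligands (left) and 20 receptors (right): circles show the loss of *Scap* at E18.5, squares its loss on PN1, and triangles the Insig1/2 deletion of E17.5, 3 arrays a group. No symbol is filled, because 0 members passed; at E18.5 all receptors lie left of 0.

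The likeness of members over the means of the 6 groups is given as a description, since the groups share line and stage. Members were not sorted into sets by it. Most like *Sema3c* were *Sema3g* (Pearson r = 0.89), *Plxna1* (0.86) and *Efnb2* (0.86), and least like it was *Epha3* (-0.96). Most like *Efna3* were *Efna2* (0.95), *Efna4* (0.92) and *Epha1* (0.90). Most like *Epha7* were *Epha1* (0.93), *Efna4* (0.91) and *Plxnb2* (0.89). *Epha7* was at 9.59 to 9.86 in the Insig controls at E17.5, the highest of the 6 groups by its mean.

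Genes that act with the family were read in 4 lists. In the 3 deletion comparisons and in their difference, 0 of 15 other semaphorins and plexins, 0 of 25 carriers of Eph and ephrin signals, 0 of 20 carriers of semaphorin signals and 0 of 9 VEGF ligands and receptors passed. For *Scap* deletion at E18.5, 13, 16, 17 and 7 of them in this order were below 0. The medians were -0.08, -0.07, -0.14 and -0.15, against -0.04 over all probe sets. Between E18.5 and PN1 in controls 2 passed, where 1.19% of all probe sets were called higher and 1.39% lower. *Vegfc*, a ligand of lymphatic growth whose receptor pairs with *Nrp2*, rose by 0.68 ± 0.10 (limma adjusted p = 0.0089), and *Mical1*, the enzyme that oxidises actin downstream of A plexins, by 0.45 ± 0.10 (limma adjusted p = 0.045). Both also rose in *ScapΔ/Δ* lungs, *Vegfc* by 0.50 ± 0.10 and *Mical1* by 0.73 ± 0.10.

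In *ScapΔ/Δ* lungs more of these genes passed between E18.5 and PN1, as did more of all probe sets (17.5% higher and 20.1% lower). Of the other semaphorins 2 rose, *Sema5b* (0.38 ± 0.10) and *Sema4f* (0.35 ± 0.11), and *Sema6b* fell by 0.28 ± 0.08. Of the carriers of Eph and ephrin signals 2 rose and 3 fell, among them *Chn1*, a Rac regulator downstream of *Epha4*, which fell by 0.79 ± 0.18, and the kinase *Yes1*, which fell by 0.51 ± 0.10. Of the carriers of semaphorin signals 3 rose and 2 fell. Of the VEGF genes *Vegfa* (0.53 ± 0.12), *Vegfc* and *Flt1* (0.58 ± 0.18), a VEGF receptor, rose, and *Vegfd* (-0.93 ± 0.16) and *Vegfb* (-0.32 ± 0.10) fell. The counts of these genes include KO17 and KO18, and the lists were not refitted without them.

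*Epha10* and *Ephb1* had a second probe set. For *Epha10* it made no difference beyond 1 SD, but the overlap of groups changed. In the Insig line the second probe set overlapped, at 7.06, 7.16 and 6.96 against 6.97, 7.10 and 6.94. For *Scap* deletion at E18.5 it was lower without overlap (-0.13), where the one used overlapped (-0.04). For *Ephb1*, a neuronal B receptor that did not pass in any comparison, the second probe set was below the filter on low values (5.81 to 6.33 on the 18 arrays). It was read outside the test. It gave 0.10 in place of -0.02 for *Scap* deletion at PN1, 0.05 in place of -0.13 for birth in controls and 0.26 in place of 0.04 for birth in *ScapΔ/Δ* lungs.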

How the data were processed

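RNA from whole lung was hybridised by the authors to Affymetrix Mouse Gene ST arrays, 3 lungs for each of 6 groups, and analysed in GeneSpring GX. The deposited values are log2 intensities per probe set; the summarization and normalization that made them are not given in the sources used here, so a signal that moved on a whole array may have been scaled away. Groups were taken from the labels. The table holds 35556 probe sets, of which 21789 carry 1 gene symbol, 1621 several and 12146 none. Array medians were 7.42 to 7.70. Arrays have no read depth, and their number limits the precision.

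The filter of the methods was used: a probe set had to reach the 35th percentile of an array on 66% of the arrays or more. Group means were fitted with limma (version 3.58.1; R version 4.3.3), once for the 12 arrays of the *Scap* line (22800 probe sets) and once for the 6 of the Insig line (22775), with p adjusted by Benjamini-Hochberg over all of them; the 2 fits were tested on simulated data. Errors are standard errors of the fit unless named SD. The analysis of variance of the methods, which they name for the *Scap* line, was not repeated, since the *Scap* line arrays of E17.5 were not analysed here. Their t-test, named for the Insig line alone, was run here on each pair of groups. It was called at an adjusted p under 0.05, without the fold threshold of the methods. A gene with 2 probe sets is given by the one of higher mean. All members may be named, and values on every array are given for members that passed and for the 2 ligands and 2 receptors of each comparison with the largest difference without overlap, with further plexins, *Sema3b* and *Efna5* added after their values were seen. Genes, lists of markers and pathways, and promoter motifs were chosen with earlier results of these data known, and 1 of the pathway lists is not reported here. Promoter windows are those of RefSeq on GRCm38.p6, matched by symbol for 33 members. Alternatives were other filters, scalings, fits, thresholds and probe sets, and each array left out.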

Additional observations from a re-analysis of the deposited data

Results flagged for a closer look

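*Efna4*, an A ephrin, differed in opposite directions in the 2 lines. It was higher on all 3 *Insig1/2Δ/Δ* arrays than on the controls at E17.5 (by 0.10) and lower on all 3 *ScapΔ/Δ* arrays than on the controls at E18.5 (by -0.07). The 2 differences were 0.17 apart on the log2 scale. The distance of 0.17 was not tested, line and stage cannot be told apart in it, and neither difference passed by limma (adjusted p of 0.76 and 0.77).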

How the results depend on the processing

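No paired analysis was possible because no replicate number is shared between groups. With array weights in limma, whose estimation stopped before it converged (weights of 10 for KO17, 0.787 for KO18 and 0.0489 for KO16, and of 6.69 for KO23 and 0.204 for KO22), more members passed: 3 for *Scap* deletion at E18.5, 17 at PN1, 13 for Insig1/2 deletion, 11 for the difference of the *Scap* effects, 8 for birth in controls and 20 for birth in *ScapΔ/Δ* lungs, where 11.2%, 68.1%, 36.7%, 64.4%, 12.5% and 76.1% of all probe sets passed. A fit over all 18 arrays gave 3 at PN1 (13.2%). For birth in controls 6 passed with the control arrays alone (11.1% of all probe sets) and 1 by the methods' t-test (2.51%). At the methods' threshold 1 passed, as did 138 of 22800 probe sets. For birth in *ScapΔ/Δ* lungs 0 passed by the methods' t-test (0.0219% of all probe sets) and 4 at the threshold (1026 of 22800). With 1 array left out at a time, 0 to 12 passed at PN1, where 0.00441% to 61.9% of all probe sets did. For the difference of the effects 0 to 7 passed (0% to 58.4%). For birth, 1 to 7 passed in controls (0.619% to 12%) and 4 to 18 in *ScapΔ/Δ* lungs (7.56% to 72.1%). Without KO17 and KO18 the group of KO16 alone was assumed to vary like the others.

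In the difference of the *Scap* effects *Epha8* turned to -0.0071 under quantile normalisation, and *Plxnb3* to -0.095 under quantile normalisation and -0.071 under median centring. Median centring moved the median over the members to -0.19 at PN1, -0.095 in the difference of the effects and -0.089 for birth in *ScapΔ/Δ* lungs. The medians over all probe sets were then -0.19, -0.21 and -0.20. Of 620 values of named genes under the alternatives, 523 kept their direction and side of the threshold, 23 passed only under the alternative, 71 lost their call and 3 turned.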
